A study of Mus musculus with 28 samples.

Results

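H3K27me3, the trimethyl mark on lysine 27 of histone H3, was compared between microglia carrying both CD229 and CD11c after cuprizone feeding and basal microglia, over all 26326 regions with deposited counts of 26326. The CD229+CD11c+ group held 3 libraries and the basal group 3 libraries (replicates 3, 4 and 5), chosen by their labels from 28 libraries of the series, of which 14 were H3K27me3 and 14 input. The CD229+CD11c+ cells were sorted as microglia positive for CD229 and CD11c from adult male wild-type C57BL/6 mice on a 0.2% cuprizone diet for 4 weeks. The basal cells, gated as low for CD44, CD45 and CD11b, came from adult male wild-type C57BL/6 mice on regular food. Brains of 2 to 6 mice of a condition were pooled per the labels' protocols, and no label ties a library to separate animals, so p-values measure the spread between these libraries. Diet and gate changed together, and their effects cannot be told apart. The CD229+CD11c- and CD229-CD11c- cuprizone subsets (3 libraries each) entered the same model and serve as comparisons where stated.

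Polycomb repressive complex 2 places H3K27me3 on genes that a cell keeps silent, above all on CpG-rich promoters of developmental regulators, and loss of the mark can accompany release from silencing. Microglia are the resident macrophages of the brain; when myelin breaks down they take up debris and switch on phagocytic, lipid-handling and inflammatory genes. Cuprizone is a copper chelator that kills oligodendrocytes and strips myelin, CD229 is a SLAM family receptor (gene Ly9), and CD11c is an integrin chain (gene Itgax). No region had Ly9, Itgax, P2ry12 or Tmem119 as its nearest gene. The mark does not report RNA, so the microglial label was not tested against marker expression.

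Depth over the regions was 8934801 to 11362168 tags in CD229+CD11c+ libraries and 9742663 to 11175711 tags in basal libraries. A region had a median of 169 to 216 tags in CD229+CD11c+ and 192 to 222 tags in basal libraries. The regions had been called by the authors on another 2 basal libraries, so a mark that appeared only in cuprizone cells was not counted. Levels are CPM, the tag count of a region scaled to the library's total over all regions with TMM factors, and fold changes are log2 values ± SE of CD229+CD11c+ over basal, from edgeR's quasi-likelihood test with Benjamini-Hochberg adjustment over all regions. A region is said to have risen or fallen, or to be called, at an adjusted p under 0.05. Titles of 2 libraries per group carry a PE150 tag and that of replicate 3 does not; no source used here explains the tag. The calls were made on these same libraries together. Median fold changes of the risen regions were 0.50 in tagged and 0.37 in untagged libraries, and those of the fallen regions -0.53 and -0.48.

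In CD229+CD11c+ microglia the mark was depleted at a small set of regions led by Lgals3, Egr2 and Myof, and higher by smaller steps over a larger set that included many developmental, neuronal and growth factor genes. Of the 26326 regions 1139 rose (4.33%) and 386 fell (1.47%), 1525 in all (5.79%). Falls were fewer and deeper: 45 of them and 18 of the gains reached a 2-fold change (63 regions, 0.239%). The median change was -0.52 over the fallen and 0.46 over the risen regions, against -0.01 over all regions. In 5 fallen regions the CD229+CD11c+ mean was at most 25% of the basal mean, and in 45 it was at most 50%. Scaled by total counts, a choice that moved the median of all regions by -0.07, 687 regions rose and 796 fell. In 27.6% of all regions the 3 CD229+CD11c+ libraries did not overlap the 3 basal ones. With the PE150-tagged libraries alone 4274 regions were called, and 4538 with the tag as a covariate. Calls numbered 442 without basal replicate 4, 459 without CD229+CD11c+ replicate 1, 599 without CD229+CD11c+ replicate 2, 869 without basal replicate 3 and 1012 without basal replicate 5.

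**Figure D1:**
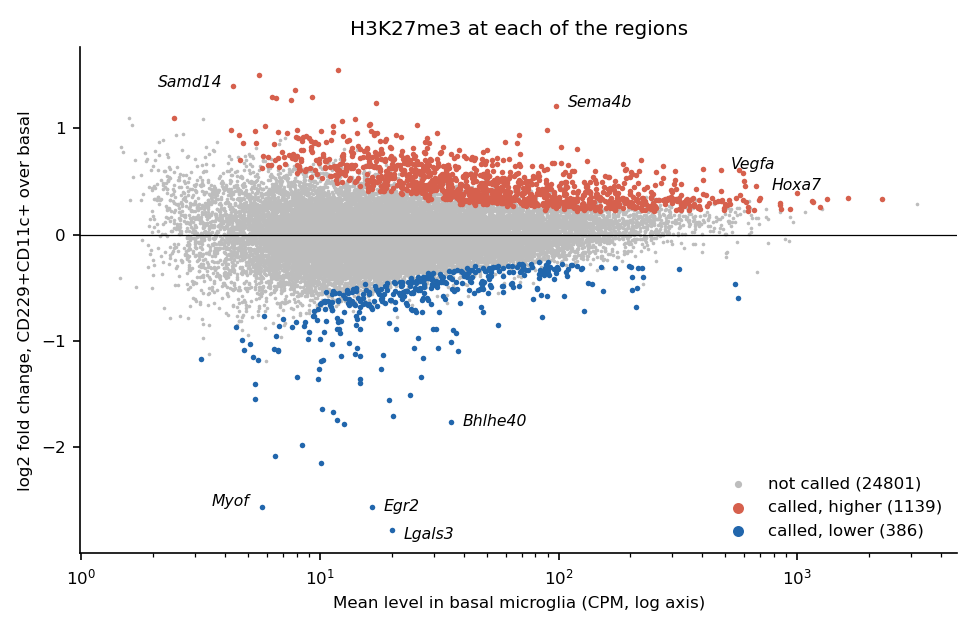
Each point is 1 of the 26326 regions, with its mean basal level in CPM (log axis) against its log2 fold change of CD229+CD11c+ over basal microglia. The 386 falls (blue) reached -2.78 at Lgals3, and the 1139 gains (red) ran up to 1.55 and extended to the most heavily marked regions on the right.

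Promoter sequences inside the regions are shown so that CpG content can be read beside the calls. RefSeq promoter windows of 300 bases (250 before to 50 after the annotated start, build GRCm38.p6, read along the gene's strand) are printed with every CpG dinucleotide in capitals, the first 3 from regions that fell and the last 3 from regions that rose. Axl had 6 CpG in its window, Lgals3 18 and Pde4a 29, while Mmp15 had 22, Sema4b 26 and Kcnip3 28. They lie at chr14:47373610-47373909 (plus strand, Lgals3), chr7:25788684-25788983 (minus strand, Axl), chr9:21165464-21165763 (plus strand, Pde4a), chr7:80186620-80186919 (plus strand, Sema4b), chr2:127482450-127482749 (minus strand, Kcnip3) and chr8:95352046-95352345 (plus strand, Mmp15).
Lgals3: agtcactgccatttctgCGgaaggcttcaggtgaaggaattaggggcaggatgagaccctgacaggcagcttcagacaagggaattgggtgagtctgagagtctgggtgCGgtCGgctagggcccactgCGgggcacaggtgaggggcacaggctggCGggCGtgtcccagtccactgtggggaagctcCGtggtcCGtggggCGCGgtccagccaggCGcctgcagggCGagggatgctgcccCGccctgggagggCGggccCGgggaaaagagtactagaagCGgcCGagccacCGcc
Axl: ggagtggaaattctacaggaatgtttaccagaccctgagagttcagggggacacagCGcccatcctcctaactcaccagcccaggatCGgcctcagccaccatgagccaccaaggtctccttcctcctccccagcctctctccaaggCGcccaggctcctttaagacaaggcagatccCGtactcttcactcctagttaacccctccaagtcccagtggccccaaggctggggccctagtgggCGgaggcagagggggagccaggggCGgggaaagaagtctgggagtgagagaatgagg
Pde4a: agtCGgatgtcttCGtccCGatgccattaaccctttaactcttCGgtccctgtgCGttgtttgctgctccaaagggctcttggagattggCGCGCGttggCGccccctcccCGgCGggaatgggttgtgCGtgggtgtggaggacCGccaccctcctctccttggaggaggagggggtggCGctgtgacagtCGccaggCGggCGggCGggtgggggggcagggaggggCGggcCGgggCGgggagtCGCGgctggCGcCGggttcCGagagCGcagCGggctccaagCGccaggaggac
Sema4b: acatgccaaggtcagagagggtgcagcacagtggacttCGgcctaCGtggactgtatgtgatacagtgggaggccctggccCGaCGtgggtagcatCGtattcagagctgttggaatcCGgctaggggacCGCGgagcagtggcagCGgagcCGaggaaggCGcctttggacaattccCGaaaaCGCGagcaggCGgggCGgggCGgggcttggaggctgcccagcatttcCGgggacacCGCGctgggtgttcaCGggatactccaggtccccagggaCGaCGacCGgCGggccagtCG
Kcnip3: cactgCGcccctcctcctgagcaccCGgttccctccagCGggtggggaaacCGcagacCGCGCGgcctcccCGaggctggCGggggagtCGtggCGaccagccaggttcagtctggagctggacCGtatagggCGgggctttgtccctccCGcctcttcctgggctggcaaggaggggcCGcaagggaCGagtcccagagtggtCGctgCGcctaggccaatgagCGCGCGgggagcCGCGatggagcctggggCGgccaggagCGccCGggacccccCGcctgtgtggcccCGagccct
Mmp15: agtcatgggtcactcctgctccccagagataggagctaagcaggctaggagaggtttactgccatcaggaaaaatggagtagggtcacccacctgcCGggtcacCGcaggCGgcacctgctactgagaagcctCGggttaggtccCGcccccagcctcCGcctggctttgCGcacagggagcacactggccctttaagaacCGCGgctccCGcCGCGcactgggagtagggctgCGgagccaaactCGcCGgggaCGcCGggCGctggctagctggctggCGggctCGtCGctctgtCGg

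Promoters in regions that gained the mark were richer in CpG than promoters in the other regions. Of 32851 promoter windows in the table, 7613 lay wholly inside a region: 1315 in regions that rose, 120 in regions that fell and 6178 in regions not called. A window held a median of 15 CpG in risen regions, 7 in fallen regions and 7 in regions not called, against 7 over the whole table. The share with an observed over expected CpG ratio of at least 0.6 was 53.0% in risen, 29.2% in fallen and 26.8% in uncalled regions. Strong basal marking alone went with more CpG: within the top 2 deciles of basal enrichment the medians were 16 in risen, 11 in fallen and 12 in uncalled regions. Letters of an E-box (CACGTG) occurred in 6.9% of windows in risen regions, 6.7% in fallen regions and 7.2% of all windows. Letters of an AP-1 site (TGANTCA) occurred in 6.4%, 8.3% and 7.8% of the same sets. Both motifs read the same on either strand and neither contains the other. These are descriptions over promoters, which share regions and are not replicates.

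The fallen regions were led by Lgals3, the gene of galectin-3, a sugar-binding lectin of activated microglia and macrophages. Its 3.98 kb region (chr14:47372854-47376837, mm10) begins ahead of the start site and reaches into the gene, and holds the promoter printed above. CD229+CD11c+ replicates 1, 2 and 3 had 24, 24 and 40 tags there, against 216, 198 and 236 tags in basal replicates 3, 4 and 5. That is 2.43, 2.71 and 3.54 CPM in CD229+CD11c+ libraries and 21.6, 18.2 and 20.4 CPM in basal libraries. The CD229+CD11c+ mean was 14.4% of the basal mean (-2.78 ± 0.19, adjusted p = 4.82e-08). The change was -2.91 in tagged and -2.61 in untagged libraries.

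Among immediate-early transcription factors, which cells induce within minutes of stimulation, Egr2 fell most. Its region over the gene (chr10:67537781-67541170, 1545 bp past the start) had 2.63, 2.48 and 3.18 CPM in CD229+CD11c+ libraries, against 17.6, 13.8 and 18.1 CPM in basal libraries. The change at this region was -2.56 ± 0.22 (adjusted p = 1.33e-06). The 3 other regions assigned to Egr2, centred 78346, 23879 and 5119 bp upstream, were at -0.05, -0.45 and -0.34 and did not pass. Maff, a small Maf leucine zipper factor, had 3.24, 3.27 and 4.16 CPM in CD229+CD11c+ libraries and 11.4, 11.2 and 11.6 CPM in basal libraries, a narrow spread on each side (-1.67 ± 0.23). Egr1 fell in 1 of its 3 regions, on chromosome 18, at 14.4, 19.0 and 19.7 CPM in CD229+CD11c+ against 39.0, 35.7 and 32.1 CPM in basal libraries (-1.01 ± 0.16, adjusted p = 0.000908). The family did not move as a block. Of 81 regions of the list (median -0.05) 6 fell (7.41%) and 4 rose (4.94%), against 1.47% and 4.33% over all regions. The falls included Nr4a2 at -0.51 (1 of its 5 regions, 17000 bp from the start site), Ier2 at -0.43 and Npas4 at -0.31. Fosb at 0.67 (1 of its 3 regions), Fosl2 at 0.52, Egr4 at 0.36 and Egr3 at 0.22 were the gains. Fosb lost the call without basal replicate 4 or 5 or CD229+CD11c+ replicate 3 (adjusted p of 0.0559 to 0.0861).

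Bhlhe40 encodes a basic helix-loop-helix repressor of activated myeloid cells. The authors had added a 6.3 kb region (chr6:108660629-108666925), named for the long isoform of Bhlhe40 though its nearest gene in their annotation is 0610040F04Rik. It lies inside a 109 kb region of the list, so its tags count in both. It had 7.39, 10.7 and 13 CPM in CD229+CD11c+ libraries and 39.5, 31.7 and 34.8 CPM in basal libraries (-1.76 ± 0.16, adjusted p = 2.78e-06). The enclosing region fell less, to 400 ± 48.7 CPM in CD229+CD11c+ against 550 ± 43.5 CPM in basal libraries (-0.46 ± 0.09, adjusted p = 0.00385; SD, n = 3 each).

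Disease-associated microglia genes, the program that microglia take on around plaques and damaged myelin, accounted for several of the deepest falls. Of 53 regions whose nearest gene is on that list 8 fell (15.1%) and 1 rose (1.89%), against 1.47% and 4.33% over all regions. The median of the list was -0.15, or -0.22 with total-count scaling. Besides Lgals3 the falls were Axl, Apoe, Etl4, Igf1, Ch25h, Flt1 and Dkk2, and the gain was Cadm1 (0.30). Flt1 fell in 1 of its 6 regions, 24131 bp from the start site, and Dkk2 in 1 of its 5. The promoter region of Axl, a receptor that recognises dying cells, had 3.75, 2.14 and 4.86 CPM in CD229+CD11c+ libraries, against 13.2, 12.3 and 12.3 CPM in basal libraries (-1.78 ± 0.29, adjusted p = 0.00103). Etl4 had 5.87, 7.34 and 6.63 CPM in CD229+CD11c+ libraries and 22.0, 17.8 and 18.4 CPM in basal libraries (-1.55 ± 0.16, adjusted p = 8.64e-06). Non-overlap between groups was a condition for naming both regions, and 12.9% of all regions met it in the downward direction.

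Apoe, which encodes the main lipid carrier of the brain, was uneven among the CD229+CD11c+ libraries. They had 2.03, 14.2 and 3.10 CPM (20, 126 and 35 tags), against 19.9, 21.1 and 19.5 CPM in basal libraries. CD229+CD11c+ replicate 2 stood nearer to the basal level and the other 2 far below it. The change was -1.70 ± 0.40 (adjusted p = 0.0174); it was -2.95 (adjusted p = 1.11e-06) without replicate 2, and -1.27 (adjusted p = 0.0679) without CD229+CD11c+ replicate 1. Without basal replicate 4 the adjusted p was 0.0642. The call was also lost with the libraries of both groups alone (0.237), with PE150-tagged libraries alone (0.291), with the tag as a covariate (0.0743) and with DESeq2 (0.0666).

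Igf1, an insulin-like growth factor gene, averaged 3.78 CPM in CD229+CD11c+ and 9.80 CPM in basal libraries (-1.36 ± 0.25, adjusted p = 0.00226); it was chosen after its values were seen. Ch25h makes 25-hydroxycholesterol, an oxysterol of stimulated macrophages, and averaged 8.36 ± 0.497 CPM in CD229+CD11c+ and 18.4 ± 3.85 CPM in basal libraries (SD, n = 3 each; -1.13 ± 0.17, adjusted p = 0.000356). Apoe and Ch25h were the only called regions among the 28 of lipid-handling genes (2 lower, 0 higher, median -0.10). They made up 7.14% of the list, against 5.79% called and 1.47% lower over all regions. Homeostatic microglia genes were nearest to any region in 13 of 40 cases. The counts were similar for disease-associated (19 of 53), antigen presentation (8 of 25) and lipid-handling genes (17 of 40). Of the 62 regions of the homeostatic list (median -0.13) Egr1 alone passed, 1.61% against 5.79% over all regions. The adjusted p of the next, 649070 bp from Sall1, was 0.0586 (-0.66).

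Genes of membrane repair, actin and uptake went both ways, with the larger changes downward. Of 162 regions (median -0.01) 7 fell (4.32%) and 9 rose (5.56%), against 1.47% and 4.33% over all regions. Myof, a dysferlin relative that reseals membranes, had only 1.11, 1.02 and 0.796 CPM in CD229+CD11c+ libraries (11, 9 and 9 tags) at an intronic region, against 5.40, 5.61 and 6.21 CPM in basal libraries (-2.56 ± 0.27, adjusted p = 1.24e-05). Another region of Myof rose (0.36). Inf2, a formin that builds and severs actin filaments, had 8.81, 10.5 and 12 CPM in CD229+CD11c+ libraries and 27.9, 25.4 and 26.5 CPM in basal libraries (-1.34 ± 0.13, adjusted p = 7.14e-06). Rai14, Myo5a, Myo1e and Anxa2 were at -1.16, -1.15, -0.97 and -0.83. The gains included the engulfment receptor Megf10 (0.74 and 0.51 at its regions).

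Further deep falls lay at genes of endosomes, surface receptors and signalling. Rab7b, a small GTPase of late endosomes, had 2.33, 1.24 and 3.10 CPM in CD229+CD11c+ libraries, against 8.00, 11.7 and 10.6 CPM in basal libraries (-2.15 ± 0.29, adjusted p = 0.000164). Cd72, an inhibitory C-type lectin best known from B cells, had 3.24, 2.48 and 4.69 CPM in CD229+CD11c+ libraries and 13, 10.9 and 11.7 CPM in basal libraries (-1.74 ± 0.26, adjusted p = 0.000476). Sulf2, an extracellular heparan sulfatase, was at -1.64 ± 0.26, and Fam20c, a secretory-pathway kinase, at -1.51 ± 0.16. Fblim1, a filamin-binding adapter, was at -1.26 ± 0.18. Fgr, a Src family kinase, was at -1.19 ± 0.30 (adjusted p = 0.0226) and did not pass without CD229+CD11c+ replicate 1 or 2 or without basal replicate 3 or 4 (adjusted p of 0.0723 to 0.133). Chosen after their values were seen, Ikbke, a kinase upstream of interferon genes, averaged 1.48 CPM in CD229+CD11c+ and 6.46 CPM in basal libraries (-2.08 ± 0.35), and the orphan receptor gene Gpr162 2.12 CPM in CD229+CD11c+ and 8.45 CPM in basal libraries (-1.98 ± 0.31). Likewise chosen, the promoter region of Ctse, the gene of cathepsin E, was at -1.54 ± 0.34, Acod1, which makes itaconate, at -0.86 ± 0.22, and the region 9562 bp from Mir155hg, the host transcript of miR-155, at -0.73 ± 0.12.

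**Figure D2:**
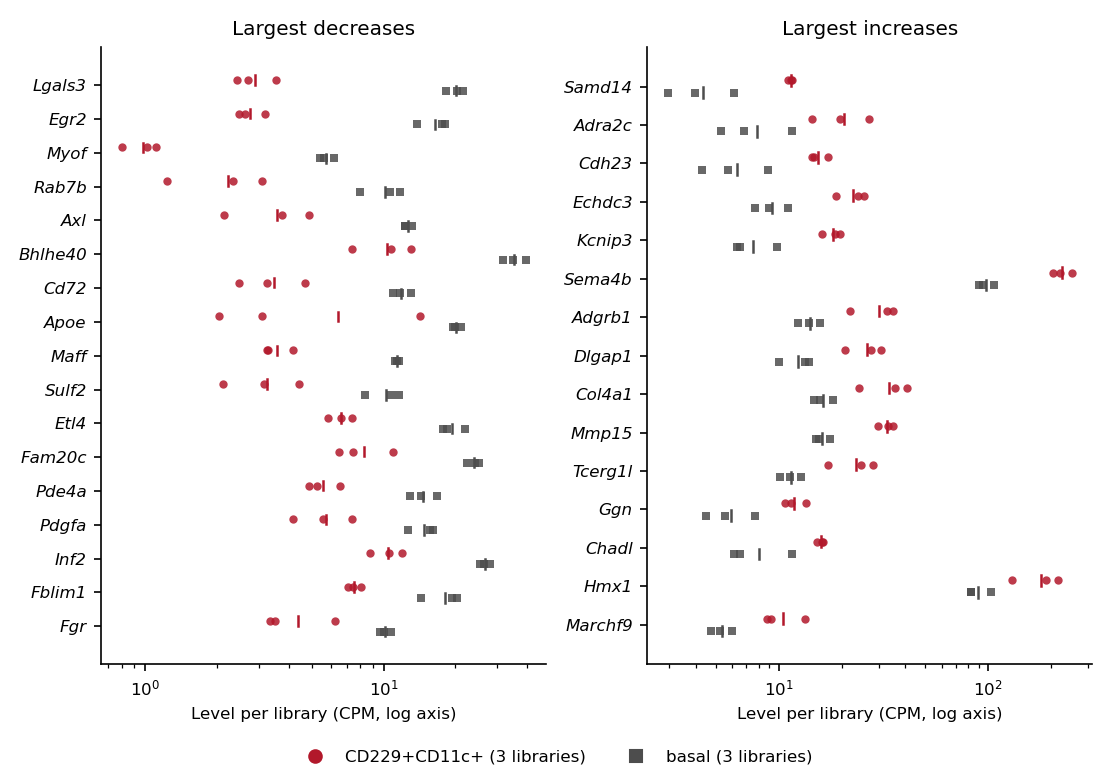
Levels in CPM (log axis) of each CD229+CD11c+ library (red circles, upper row of each gene) and each basal library (grey squares, lower row) at the regions with the largest named changes, with group means as vertical bars. Apoe shows 1 CD229+CD11c+ library at 14.2 CPM beside 2.03 and 3.10 CPM.

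Immune signalling genes were called in both directions, with falls at 15.4% of the interferon regions and 13.3% of the antigen presentation regions, against 1.47% over all regions. Among 26 regions of interferon response genes 4 fell and 2 rose (23.1% called; median 0.03, or -0.05 with total-count scaling). Irf7, the factor that amplifies type I interferon, had 5.67, 4.29 and 9.11 CPM in CD229+CD11c+ libraries and 13.9, 14.3 and 13.9 CPM in basal libraries (-1.12 ± 0.19, adjusted p = 0.00157). Oasl2, an interferon-induced gene, was at -0.72 ± 0.13, Slfn5 at -0.89 and the guanylate-binding protein gene Gbp5 at -0.36, whereas its relative Gbp7 rose (0.92 ± 0.19) and so did Irf8 (0.37). In the antigen presentation list 2 of 15 regions fell: Nlrc5, which switches on MHC class I genes (-0.82 ± 0.20, adjusted p = 0.0193), and H2-Ab1, an MHC class II chain (-0.66 ± 0.19, adjusted p = 0.0431). Both lost the call without any 1 basal library and without CD229+CD11c+ replicate 1 or 2 (-0.75 to -0.85 and adjusted p of 0.0535 to 0.109 for Nlrc5, -0.57 to -0.75 and 0.0509 to 0.204 for H2-Ab1), and kept it without CD229+CD11c+ replicate 3. Cytokine and chemokine genes had 4 gains and 2 falls in 92 regions (median -0.08), with 6.52% called, against 5.79% over all regions. Tnfsf11, the RANK ligand, was at 0.74 and 0.54, Csf2 at 0.38, Il15 at -0.55 and Lif at -0.43. The Il15 fall was 1 of its 11 regions, 205028 bp from the start site (adjusted p = 0.045), and none of the others passed. Cytokine and pattern receptor genes had 2 gains and 2 falls in 63 regions (6.35% called), with Cxcr4 at 0.77 ± 0.11 and Nfkbia, an NF-kappa-B inhibitor, at -0.62 ± 0.16. Gbp5 and Nfkbia lost the call without basal replicate 3 or 4 or CD229+CD11c+ replicate 1 or 2, and Lif without any of those or basal replicate 5 (adjusted p of 0.0587 to 0.145 for the 3 genes). Csf2 lost it in all 6 leave-outs (0.05 to 0.113) and with total-count scaling (0.0771), and Tnfsf11, at 0.74, lost it without CD229+CD11c+ replicate 1 (0.0632). In the SLAM and sort-panel list only Slamf9 (-0.33) and Sh2d1a (0.33) had a region, and neither passed.

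Of 126 regions of prostaglandin, purine and cAMP genes 7 rose (5.56%) and 4 fell (3.17%), against 4.33% and 1.47% over all regions (median 0.03, or -0.05 with total-count scaling). Cyclic AMP is a messenger that damps microglial activation. Pde4a, a phosphodiesterase that breaks it down, fell at its promoter region, with 5.27, 4.85 and 6.54 CPM in CD229+CD11c+ libraries and 16.8, 14.4 and 12.9 CPM in basal libraries (-1.39 ± 0.21, adjusted p = 0.000564). Ptger4, a prostaglandin E2 receptor that raises cAMP, had 18.4, 17.4 and 21.9 CPM in CD229+CD11c+ libraries and 40.4, 36.9 and 30.7 CPM in basal libraries (-0.90 ± 0.13, adjusted p = 0.000254). The gains lay at the adenylyl cyclase genes Adcy8 (0.92 ± 0.12) and Adcy6 (0.49), the cAMP sensor Rapgef3 (0.70 ± 0.10), the phosphodiesterase Pde10a (0.31) and the adrenergic receptors Adra2c (1.36 ± 0.34) and Adra2a (0.67 ± 0.10). Ptger3, another E2 receptor, rose at its 5' end (0.73) and fell 156166 bp away (-0.43). Adra2c did not pass without CD229+CD11c+ replicate 1 or 2 or without basal replicate 3 or 4 (adjusted p of 0.0593 to 0.128).

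The growth factor list divided by gene. Of 91 regions 12 rose (13.2%) and 3 fell (3.3%), against 4.33% and 1.47% over all regions. The median of the list was 0.11, or 0.04 with total-count scaling. The falls were Pdgfa, which drives oligodendrocyte precursors, Igf1 and Fgf2, at -1.36, -1.36 and -1.4. At Pdgfa the fallen region (chr5:138989465-138993782, intronic) had 7.39, 4.18 and 5.57 CPM in CD229+CD11c+ libraries and 16.1, 12.6 and 15.7 CPM in basal libraries (adjusted p = 0.000215), and the other 7 of its 8 regions, at -0.52 to 0.22, did not pass. Gdnf, a neurotrophic factor, had 130, 127 and 108 CPM in CD229+CD11c+ libraries and 68.1, 66.1 and 66.4 CPM in basal libraries (0.86 ± 0.10, adjusted p = 3.95e-05), and the 12 gains included Ntf3 (0.72), Artn (0.68) and Ntf5 (0.42, or 0.18 and not called with loess offsets). Gfra1, the receptor of GDNF, was chosen after its values were seen and rose as well (0.96 ± 0.12). A 119 kb region assigned to Vegfa, the vascular growth factor, had 770, 750 and 684 CPM in CD229+CD11c+ libraries and 457, 454 and 528 CPM in basal libraries (0.61 ± 0.08, adjusted p = 0.000168).

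Developmental transcription factors are classic Polycomb targets, and the regions of these lists had gains and no falls. Of 289 regions of homeobox and Pax genes outside the Hox clusters 68 rose and 0 fell (23.5%; median 0.18, or 0.11 with total-count scaling). Of 370 regions of forkhead, T-box, Sox, GATA, helix-loop-helix and zinc-finger regulators 72 rose and 0 fell (19.5%; median 0.08, or 0.01 with total-count scaling). Over all regions 4.33% rose. Prdm12, a regulator of pain-sensing neurons, had 469, 449 and 479 CPM in CD229+CD11c+ libraries and 326, 287 and 312 CPM in basal libraries (0.60 ± 0.07, adjusted p = 1.72e-05). Six6, an eye-field homeobox gene, had 160, 163 and 156 CPM in CD229+CD11c+ libraries and 114, 101 and 102 CPM in basal libraries (0.59 ± 0.07, adjusted p = 4.24e-05). Pou3f2, a neural POU factor, was at 0.54 ± 0.07, Dmrt1, a testis regulator, at 0.78 ± 0.11, and Hmx1 at 0.99 ± 0.20. The 156077 bp region over the Hoxa cluster, assigned to Hoxa7, rose by 0.34 ± 0.09 (adjusted p = 0.0315), and was at 0.07 (adjusted p = 0.579) with loess offsets, which remove the trend with basal enrichment and density. It also lost the call with total-count scaling and in 5 of 6 leave-outs, all but basal replicate 3 (adjusted p of 0.0765 to 0.171).

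Secreted patterning signals followed: 21 of 139 regions of Wnt, BMP, activin and hedgehog ligands and antagonists rose (15.1%) and 1 fell (0.719%). The median of the list was 0.10, and over all regions 4.33% rose and 1.47% fell. Sfrp1 (0.94) and Wnt5a (0.86) had the largest gains of the list. Bmp7 was at 0.72, Inhbb, an activin subunit, at 0.67 ± 0.12, Bmp4 at 0.65 ± 0.10 and the BMP antagonist Grem1 at 0.49 ± 0.10. The fall lay at 1 of the 5 regions of Dkk2 (-0.53). Grem1 lost the call without basal replicate 4 or CD229+CD11c+ replicate 1 (adjusted p of 0.0525 and 0.0558). Axon guidance genes had 18 gains (12.2%) and 2 falls (1.36%) in 147 regions (median 0.11). Sema4b, a membrane semaphorin, had the largest named gain among broad regions: its 22.1 kb region (chr7:80169322-80191413) had 221, 205 and 251 CPM in CD229+CD11c+ libraries and 107, 90.4 and 95.0 CPM in basal libraries (1.21 ± 0.13, adjusted p = 3.72e-05). The neighbouring region of Sema4b moved in step (1.03 ± 0.11). Plxnc1, a semaphorin receptor, fell in 1 of its 7 regions (-0.65), and none of the others passed.

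Adhesion and matrix genes had 20 gains (8.44%) and 1 fall (0.422%), at Alcam (-0.51), in 237 regions. Over all regions 4.33% rose and 1.47% fell. The median of the list was 0.07, or -0.01 with total-count scaling. Mmp15, a membrane-anchored metalloprotease, had 35.2, 29.9 and 33.2 CPM in CD229+CD11c+ libraries and 17.6, 15.1 and 15.5 CPM in basal libraries (1.03 ± 0.11, adjusted p = 1.98e-05). Cdh23, a cadherin of hair-cell tip links, was at 1.3 ± 0.20, and Ajuba, a LIM protein of cell junctions, at 0.96 ± 0.13. The basement membrane gene Col4a1 was at 1.04 ± 0.24 and did not pass without CD229+CD11c+ replicate 1 or 2 or without basal replicate 3 or 4 (adjusted p of 0.0596 to 0.0924).

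Several of the largest gains by fold lay in short regions with few tags in basal libraries. Samd14, at a promoter, had 11.6, 11.4 and 11.1 CPM in CD229+CD11c+ libraries and 6.10, 2.94 and 3.97 CPM in basal libraries (1.4 ± 0.28, adjusted p = 0.00541, or 0.0525 without basal replicate 4). Kcnip3, a calcium-binding partner of potassium channels and a transcriptional repressor, had 16.1, 19.7 and 18.6 CPM in CD229+CD11c+ libraries and 9.80, 6.53 and 6.30 CPM in basal libraries (1.27 ± 0.16, adjusted p = 6.54e-05). Echdc3 was at 1.3 ± 0.15. The highest fold of all, outside the rule for named genes, lay at the promoter of 5730435O14Rik (1.55 ± 0.14, 34.7 CPM in CD229+CD11c+ and 11.9 CPM in basal libraries).

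Of 60 regions of Polycomb and H3K27 demethylase genes 5% were called, against 5.79% over all regions: 2 rose (Rybp at 0.55 ± 0.11, Pcgf5 at 0.42 ± 0.09, both in variant Polycomb complexes) and 1 fell (Jarid2, a cofactor of Polycomb repressive complex 2, at -0.91 ± 0.23, adjusted p = 0.0243, 69569 bp from its start site). Jarid2 lost the call without basal replicate 3 or 4 or CD229+CD11c+ replicate 1 or 2 (adjusted p of 0.0703 to 0.117), Pcgf5 without basal replicate 4 or CD229+CD11c+ replicate 1, and Rybp without basal replicate 4 (0.0537 to 0.0748). The regions nearest to Ezh2, the catalytic subunit, were at 0.19 and -0.09, and those of the demethylase gene Kdm6b at 0.45, 0.03 and 0.07, none passing. Among cell cycle inhibitors 3 of 24 regions rose (12.5%, against 4.33% over all regions). They lay at Cdkn1c (0.53 and 0.31) and Trp73 (0.31, or 0.16 to 0.31 and not called in 7 alternatives).

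Only regions called in basal libraries were counted, so the listed regions of genes that mark other cells carried the mark there by that choice. Regions were nearest to 104 of 127 neuronal, 21 of 31 oligodendrocyte and 27 of 34 astrocyte genes. They were nearest to 26 of 45 lymphocyte, 33 of 40 endothelial and mural and 20 of 44 peripheral myeloid genes. Over all regions 4.33% rose and 1.47% fell. Neuronal genes had 30 gains (9.55%) and 2 falls in 314 regions (median 0.14), with summed levels of 17869 to 19225 CPM in CD229+CD11c+ and 15956 to 17105 CPM in basal libraries. Reln, an extracellular guide of neuron migration, was at 0.71 ± 0.14, and Gad2, which makes GABA, at 0.37 ± 0.07. The oligodendrocyte list had 4 gains (10.3%) and 1 fall in 39 regions, with sums of 2101 to 2119 CPM in CD229+CD11c+ and 1909 to 2015 CPM in basal libraries, and included Olig2 (0.29 ± 0.07) and Opalin (-0.32 ± 0.07). Olig2 was at 0.15 (adjusted p = 0.278) with loess offsets and lost the call without basal replicate 4 or CD229+CD11c+ replicate 1 (adjusted p of 0.101 and 0.0785), and Opalin without basal replicate 3 or CD229+CD11c+ replicate 1 or 2 (0.0696 to 0.0966). The astrocyte list had 6 gains (6.59%) and 5 falls (5.49%) in 91 regions (sums of 3973 to 4075 CPM in CD229+CD11c+ and 3758 to 3809 CPM in basal libraries). Sox9 was at 0.70 ± 0.11. Cldn10 fell in 3 of its 6 regions, a run on chromosome 14, so 3 of the 5 falls lay at 1 gene. Its named region was at -0.59 ± 0.13, a call lost without basal replicate 4 or CD229+CD11c+ replicate 1 or 2 (adjusted p of 0.0612 to 0.0869). Lymphocyte genes had 5 gains (5.43%) and 1 fall in 92 regions (4271 to 4284 CPM in CD229+CD11c+ and 3873 to 3968 CPM in basal libraries). Endothelial and mural genes had 5 gains (5.15%) and 1 fall in 97 (4127 to 4252 CPM in CD229+CD11c+ and 3710 to 3835 CPM in basal libraries). Peripheral myeloid genes had 2 gains (4.17%) and 0 falls in 48 (1441 to 1549 CPM in CD229+CD11c+ and 1439 to 1520 CPM in basal libraries). Medians of the oligodendrocyte, astrocyte, lymphocyte and endothelial lists were 0.01 to 0.05 and below 0 with total-count scaling, and that of the peripheral myeloid list was -0.04. In a pool, a change per cell and a change in the cells sorted cannot be told apart, and the part of other cell types in these results was not tested.

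**Figure D3:**
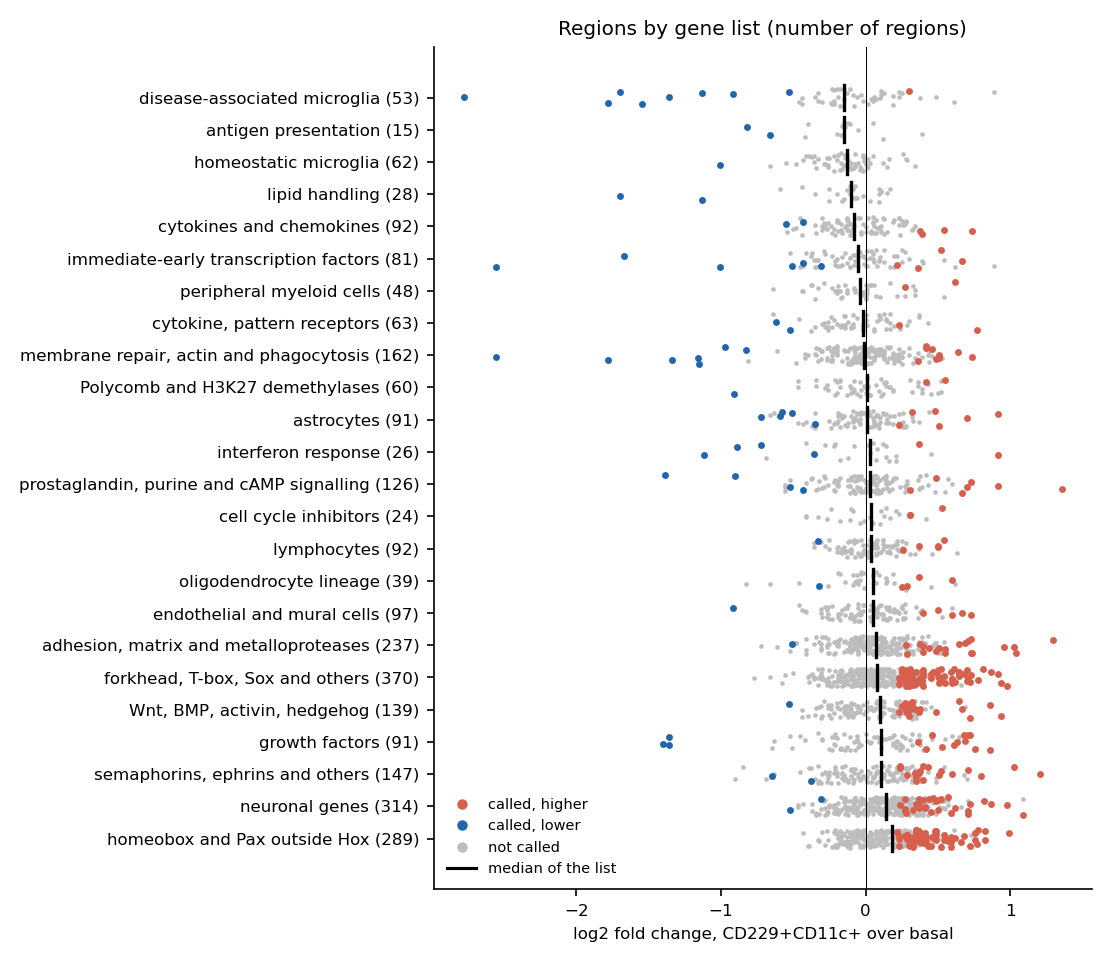
Log2 fold changes of CD229+CD11c+ over basal microglia for each region (points) nearest to a gene of 24 lists, with the list's median as a black bar and called regions in red (higher) or blue (lower). Homeobox and neuronal genes have gains to the right of the axis and few or no falls, while disease-associated microglia genes have 8 falls reaching -2.78.

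Regions that rose were longer, more strongly marked and closer to a start site than the others, and regions that fell were nearer to the uncalled ones. Median lengths were 13008 bp for risen, 7758 bp for fallen and 6195 bp for uncalled regions, and median log2 enrichments over input in the authors' basal libraries were 1.94, 1.46 and 1.48. A transcription start site (TSS) lay within 5 kb of the centre in 60.8% of risen, 22.0% of fallen and 17.2% of uncalled regions. By annotation, 173 of 899 promoter regions rose and 17 fell (21.1% called), 40 of 158 CpG island regions rose and 4 fell (27.8%), and 404 of 15486 intergenic regions rose and 193 fell (3.86%). Regions of at least 50 kb were called in 23.1% (116 higher, 5 lower of 524). Within the top decile of basal enrichment, regions with a TSS within 5 kb had 296 gains and 11 falls in 1035 (29.7%, median 0.26), against 123 gains and 10 falls in 1598 beyond 5 kb (8.32%, median 0.10). The 287 regions of the X chromosome had 19 gains (6.62%) and 1 fall (0.348%), against 4.33% and 1.47% over all regions.

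The shift showed as a share of all tags. Regions with a TSS within 5 kb held 24.8, 24.6 and 24.7% of the tags in CD229+CD11c+ libraries and 23.6, 22.8 and 23.1% in basal libraries. The mean share was 26.0% in CD229+CD11c- and 23.6% in CD229-CD11c- libraries. All 3 CD229+CD11c+ values were above all 3 basal values, a difference of 1.56 percentage points (two-sided exact permutation p = 0.1, the smallest that 3 libraries against 3 can give).

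**Figure D4:**
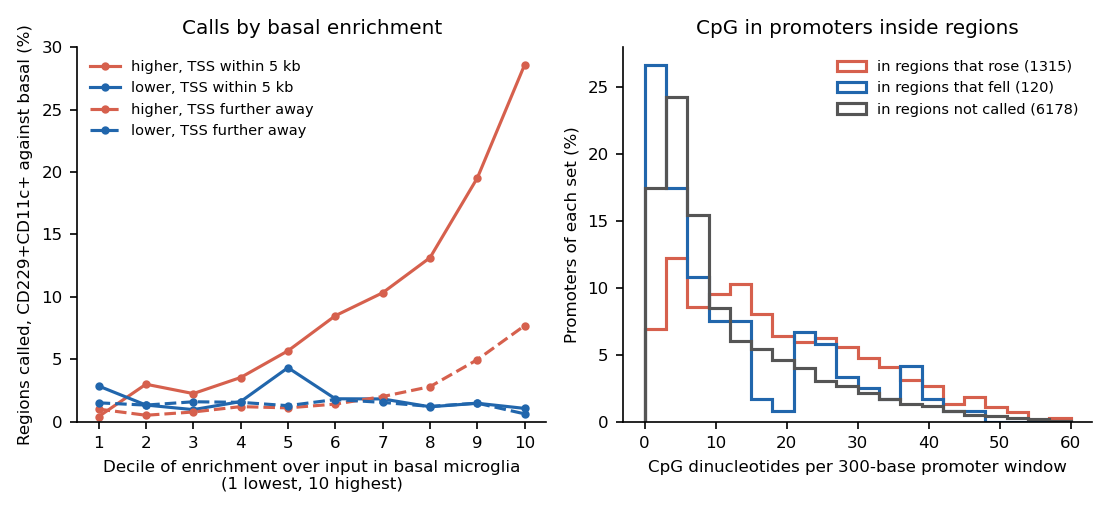
Left, the percentage of regions called higher (red) or lower (blue) in CD229+CD11c+ against basal microglia in each decile of basal enrichment over input, for regions with a TSS within 5 kb (solid) or further away (dashed). Gains reach 28.6% of near regions in the highest decile while falls stay at or under 4.32% throughout. Right, the distribution of CpG per 300-base promoter window in risen (1315), fallen (120) and uncalled (6178) regions, with medians of 15, 7 and 7.

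Most called regions stood alone. Counting called regions of 1 direction no more than 100 kb apart, 799 of the 1139 gains and 294 of the 386 falls were single, while 31 runs of at least 3 risen regions held 120 of the gains and 10 runs of fallen regions held 30 of the falls. The run with the most regions, on chromosome 9 between 47890036 and 48270740, held 9 risen regions of 18 in the span, most of them nearest to Nxpe2 and beyond its 3' side. On chromosome 19, 6 gains lay around Dmrt1 and Dmrt3, and on chromosome 17, 4 gains around Vegfa. Of the falls, 3 of 4 regions in a span of 240190 bp on chromosome 6 formed a run, the nested pair at Bhlhe40 among them.

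Set against the CD229+CD11c- subset, CD229+CD11c+ microglia had more of the called regions lower than higher, a split that depended on the scaling. The direct contrast called 14 regions higher (0.0532%) and 203 lower (0.771%) in CD229+CD11c+, 217 in all (0.824%); it called 22 higher and 25 lower with loess offsets and 3 higher and 25 lower with total-count scaling. Of the 1139 regions that rose over basal, 71 were lower in CD229+CD11c+ than in CD229+CD11c-, and 1 was higher. Most of the 1139 (982, 86.2%) were also called higher over basal in CD229+CD11c-, where their median change was 0.56, against 0.46 in CD229+CD11c+. Of the 386 falls 214 (55.4%) were also called lower in CD229+CD11c-, with medians of -0.42 there and -0.52 in CD229+CD11c+. Over all regions 12.7% were called in CD229+CD11c- against basal with the sign of their change in CD229+CD11c+. Both comparisons use the same basal libraries, so part of this sharing is built in. Lgals3 averaged 2.89 ± 0.576 CPM in CD229+CD11c+ and 7.36 ± 1.58 CPM in CD229+CD11c- libraries (-1.32 ± 0.22, adjusted p = 0.00723). Egr2 averaged 2.77 ± 0.369 CPM in CD229+CD11c+ and 11.2 ± 2.66 CPM in CD229+CD11c- libraries (-1.99 ± 0.23, adjusted p = 0.00027). Pde4a changed in opposite directions: it averaged 5.55 ± 0.881 CPM in CD229+CD11c+ and 24.6 ± 5.04 CPM in CD229+CD11c- libraries (-2.13 ± 0.21, adjusted p = 3.52e-05), with 14.7 ± 1.99 CPM in basal libraries. Kcnip3 rose less, at 18.1 ± 1.86 CPM in CD229+CD11c+ and 32.6 ± 0.549 CPM in CD229+CD11c- libraries (-0.85 ± 0.14, adjusted p = 0.00745). Means here are ± SD over 3 libraries.

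At Bmi1, a core subunit gene of Polycomb repressive complex 1, the level was 12.8 CPM in CD229+CD11c+ libraries, not called over basal (0.52, adjusted p = 0.166), and lower than in CD229+CD11c- (-0.99, adjusted p = 0.0235). Cbarp, a calcium channel regulator, had 18.2 ± 1.4 CPM in CD229+CD11c+, 39.6 ± 3.25 CPM in CD229+CD11c- and 18.3 ± 4.86 CPM in basal libraries (-1.12 ± 0.15 in the direct contrast, adjusted p = 0.00187). Many falls did not differ detectably between the CD229+ subsets: the contrast was -0.33 ± 0.17 at Bhlhe40 (SE, adjusted p = 0.444), -0.13 ± 0.18 at Ch25h and -0.10 at Maff. The call count of this contrast was unstable, with 10, 9, 64, 39 and 14 without CD229+CD11c+ replicate 1 or 2 or CD229+CD11c- replicate 1, 2 or 3.

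Against the CD229-CD11c- cuprizone subset, which shared the diet, 104 regions were higher (0.395%) and 40 lower (0.152%) in CD229+CD11c+, 144 in all (0.547%); with the replicate number as a block the counts were 1554 and 471. Calls numbered 44 without CD229+CD11c+ replicate 1, 59 without CD229+CD11c+ replicate 2, 68 without CD229-CD11c- replicate 2 and 271 without CD229-CD11c- replicate 3. Lgals3 averaged 2.89 ± 0.576 CPM in CD229+CD11c+ and 14.4 ± 1.87 CPM in CD229-CD11c- libraries (-2.30 ± 0.20, adjusted p = 3.21e-06), and Egr2 2.77 ± 0.369 CPM in CD229+CD11c+ and 14.8 ± 3.04 CPM in CD229-CD11c- libraries (-2.41 ± 0.22, adjusted p = 5.34e-06). Among the gains, Echdc3 was higher by 1.08 (adjusted p = 0.00114), Mmp15 by 0.80 (adjusted p = 0.00122) and Efna2, an ephrin, by 0.57 (adjusted p = 0.00172). The subsets share the basal libraries, so their changes over basal are set side by side only.

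**Figure D5:**
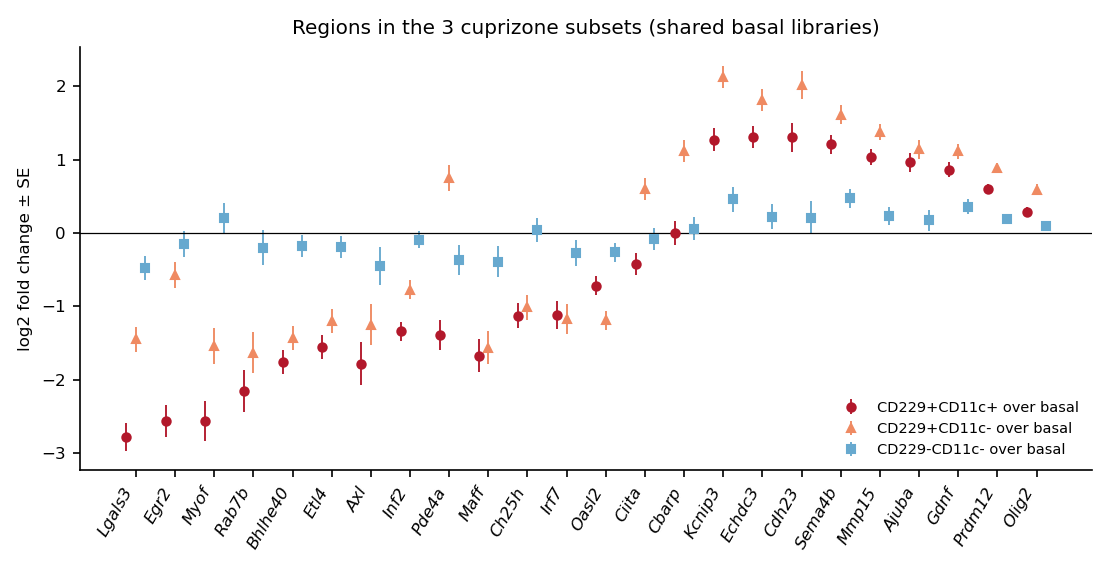
Log2 fold changes ± SE over the same 3 basal libraries for CD229+CD11c+ (circles), CD229+CD11c- (triangles) and CD229-CD11c- (squares) microglia at 24 regions, n = 3 libraries per group. Lgals3, Egr2 and Myof are lowest in CD229+CD11c+, Pde4a is below 0 in CD229+CD11c+ and above 0 in CD229+CD11c-, and CD229-CD11c- values lie between -0.48 and 0.47.

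In the authors' deposited table, 1720 regions were higher and 604 lower in CD229+CD11c+ microglia at an adjusted p under 0.05. The calls of both sources shared 1504 regions with the same sign, 98.6% of the calls made here and 64.7% of those in the authors' deposited table.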

How the data were processed

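H3K27me3 ChIP-seq tag counts in 12 libraries were analysed, 3 in each of 4 groups. The authors deposited raw counts per region, made with mm10; the submitters' processing notes list HOMER, DESeq2, STAR 2.7.0f, Bowtie2 2.3.4.1 and fastp 0.20.0, without saying which step each served. Per the file headers, regions were called with HOMER on basal replicates 1 and 2 against input, and the deposited log2 enrichments come from that step; the region at Bhlhe40 was added. The authors' table gives log2 fold changes and adjusted p-values. Nearest genes are the authors'; 40 gene names listed as dates were looked up by gene ID.

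All 26326 regions entered 1 edgeR 4.0.16 quasi-likelihood model (R 4.3.3; TMM factors, robust fit, 4 groups, 8 residual degrees of freedom); filterByExpr removed 0 regions. The call threshold was an adjusted p under 0.05. Promoter windows come from RefSeq. DESeq2 1.42.0, other scalings, filters, the PE150 tag and leaving out libraries were alternatives. Levels carry counting error and the spread between libraries; the number of tags limits weak regions.

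Named regions passed the threshold, did not overlap between groups, reached 10 CPM in the higher group and had a named nearest gene, 1 region per gene: the 15 largest changes each way, the 8 largest each way with a TSS within 5 kb, up to 4 called members of each of 26 gene lists by p (or the 2 with the smallest p where fewer than 2 were called), sort-panel genes, the 5 largest each way against each other cuprizone subset, and the added region. List members were not held to the level and overlap conditions. Other called list members and regions named in the text fall outside this rule and were chosen after their values were seen. Some results are not reported here. Members and lists were chosen with earlier results of these data known. Deviations from the group means correlated over regions at 0.24, 0.13 and 0.42 between same-numbered CD229+CD11c+ and CD229-CD11c- libraries. Those of CD229+CD11c+ replicate 1 also correlated with CD229-CD11c- replicate 2 (0.18), and those of CD229+CD11c+ replicate 2 with CD229-CD11c- replicate 1 (0.13). Replicate numbers, taken from the titles, did not enter the main fit, so the contrasts between subsets are unpaired. A block by replicate number was an alternative.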

Additional observations from a re-analysis of the deposited data

Results flagged for a closer look

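At 8 regions the fold change over basal had opposite signs in 2 cuprizone subsets and the direct contrast between those subsets passed (edgeR, adjusted p under 0.05). Both changes over basal were called only at Pde4a (-1.39 in CD229+CD11c+ and 0.75 in CD229+CD11c-); at the other 7 regions at least 1 of the 2 was not called. The uncalled one in CD229+CD11c+ was -0.42 at Ciita, -0.26 at Dst, 0.12 at Fgfbp1 and 0.24 at Ddx41, and in CD229-CD11c- 0.20 at Myof, 0.04 at Ch25h and -0.05 at Cstad. Against CD229+CD11c-, the difference (CD229+CD11c+ minus CD229+CD11c-, log2) was -2.13 at Pde4a, -1.02 at Ciita, the master regulator of MHC class II genes, -1.06 at Dst, 0.45 at Fgfbp1 and 0.81 at Ddx41. Ciita averaged 19.2 ± 2.78 CPM in CD229+CD11c+ and 39.0 ± 1.97 CPM in CD229+CD11c- libraries, with 25.8 ± 5.29 CPM in basal libraries (SD, n = 3 each). Against CD229-CD11c-, the difference was -2.76 at Myof, -1.18 at Ch25h and 0.83 at Cstad.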

How the results depend on the processing

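Against basal, the 1525 calls became 2977 with the 6 libraries of both groups alone, 4538 with the PE150 tag as covariate, 4274 with tagged libraries alone, 63 with a 2-fold minimum and 442 to 1605 when 1 library was left out; size factors, total-count scaling, loess offsets, the DESeq2 test and a mean of at least 100 counts gave 1505, 1483, 1085, 1777 and 1484. Of 105 named called regions 66 passed in every setting and 105 kept their sign. The groups did not overlap in 99.4% of all risen and 99.7% of all fallen regions. Leaving out a library could hardly reverse the sign of such a region, so the signs kept there are no separate test. Cbarp, at 0.00 against basal and not called, changed sign, to -0.07 with total-count scaling, -0.13 with loess offsets, -0.00 with DESeq2 and with both groups alone, -0.01 with at least 100 counts, and between -0.13 and 0.23 without single libraries. Against CD229+CD11c-, the 217 calls became 28 (total-count), 47 (loess), 668 (DESeq2), and 9 to 157 with 1 library left out. Deviations of same-numbered libraries of that pair correlated at 0.20, 0.08 and 0.33, and the replicate block gave 2199 calls. Against CD229-CD11c-, the 144 calls became 351 (DESeq2), 2025 with the replicate block, and 44 to 271 with 1 library left out; 104 higher and 40 lower became 60 and 50 with total-count scaling and 85 and 62 with loess offsets. The difference in share of tags was 0.65 points at 1 kb, and 1.37 to 1.79 with 1 library left out. The cause of these shifts was not tested. No pairing by replicate number was possible because CD229+CD11c+ and basal libraries with counts share only replicate number 3.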
